A study of Mus musculus with 4 samples.

Results

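The cells described here are lung fibroblasts found among the cells sorted on day 0 of a mouse lung experiment. They were chosen by their own measured RNA: a cell had at least 5 UMIs (unique molecular identifiers, each marking 1 captured RNA molecule) of Inmt, Mfap4, Pdgfra, Dpep1 and Clec3b together, with at least 2 of the 5 genes detected. It also had at most 1 UMI of the smooth muscle gene Myh11 and 0 UMIs of Upk3b (mesothelium), Cldn5 (endothelium) and Ptprc (leukocytes). This gate held 130 of 7350 day 0 cells, the barcodes kept for having 500 or more genes and no more than 15% of UMIs from mitochondrial genes, which is 1.77% (exact 95% binomial interval 1.48% to 2.10%), and of 33732 such cells in all 4 libraries.

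The mice carried the alleles Gramd2creERT2 and mTmG, so that cells express membrane tdTomato until Cre, driven from the Gramd2 gene of alveolar type I (AT1) cells, switches them to membrane EGFP. Day 0 is the suspension of GFP+ cells after flow sorting, labelled as alveolar epithelial cells. On days 8, 13 and 20 the libraries came from 3D co-culture of the sorted cells in Matrigel together with MLg, a line of mouse lung fibroblasts, with SB 431542, an inhibitor of TGF-beta receptors, followed by EpCAM enrichment. All libraries share the genotype, and the labels give neither an age, nor a number of mice, nor how Cre was induced.

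There was 1 library per day, so no difference could be tested. All intervals are 95% intervals for counting error only and say nothing of how mice or cultures vary. Levels are given in CPM: the UMIs of a gene summed over the cells of a group, per 1000000 UMIs of that group. A gene was called higher or lower when the CPM of both groups differed at least 2-fold, the higher side reached 20 CPM and the interval of the ratio excluded 1. Because the gate used these same cells, every comparison within day 0 is a description.

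Fibroblasts build the connective tissue of the lung: they secrete collagens, elastin and proteoglycans, and they supply growth factors to the neighbouring epithelium. In the mouse lung, alveolar fibroblasts lie in the walls of the air sacs and are marked by Npnt, Tcf21 and Col13a1. Adventitial fibroblasts lie in the cuffs around vessels and airways and are marked by Pi16, Dcn and Col14a1.

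The promoters of 6 genes that carry the description below are shown as the 120 bases before the RefSeq transcription start (GRCm38.p6), read 5′ to 3′ on the strand of the gene. Capitals mark the letters TATAAA, the core of a box near many tissue-restricted starts, or CCAAT, on either strand. They are shown because Inmt and Tcf21 were higher at the alveolar end of the population described below and Pi16 and Mmp3 at the adventitial end. Inmt is a gate gene found at both ends, and most UMIs of Mmp3 came from a few cells. C7 stayed under a 2-fold difference between the ends. Col1a2 was found at both ends but was higher at the adventitial end, at 4362 CPM against 1218.
Inmt, chr6:55174991-55175110, minus strand: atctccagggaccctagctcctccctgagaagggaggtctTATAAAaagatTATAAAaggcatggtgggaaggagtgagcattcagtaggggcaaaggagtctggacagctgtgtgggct
Tcf21, chr10:22820144-22820263, minus strand: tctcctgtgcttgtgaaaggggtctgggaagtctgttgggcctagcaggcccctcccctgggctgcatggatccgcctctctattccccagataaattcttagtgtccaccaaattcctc
Pi16, chr17:29318762-29318881, plus strand: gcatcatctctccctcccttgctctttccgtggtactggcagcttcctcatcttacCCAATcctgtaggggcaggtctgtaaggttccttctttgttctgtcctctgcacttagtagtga
Mmp3, chr9:7445702-7445821, plus strand: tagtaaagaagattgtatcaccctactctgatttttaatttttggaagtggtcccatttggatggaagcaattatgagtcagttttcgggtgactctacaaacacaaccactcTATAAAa
C7, chr15:5063774-5063893, minus strand: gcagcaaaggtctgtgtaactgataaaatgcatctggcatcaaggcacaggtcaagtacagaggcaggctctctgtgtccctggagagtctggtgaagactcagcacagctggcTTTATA
Col1a2, chr6:4505498-4505617, plus strand: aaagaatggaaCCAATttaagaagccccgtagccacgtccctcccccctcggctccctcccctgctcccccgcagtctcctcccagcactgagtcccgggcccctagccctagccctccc
Of the genes higher in the fibroblasts than in the rest of day 0, 1055 matched the table by symbol, with 1360 windows. A match of one motif can overlap a match of the other, and each was counted on its own. Within 250 bases before the start, TATAAA on either strand was in 7.57% of these windows, against 6.40% of the windows of all genes measured and 12.4% of all windows in the table. CCAAT on either strand was in 33.0%, 34.1% and 33.8% of the same sets. The 120 bases before the starts of Ogn, Npnt, Col13a1 and Gdf10 were also searched, held 0 matches and are not shown. A match describes the letters only.

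The gate genes themselves show how the cells were picked. Inmt, an indolethylamine methyltransferase, had a median of 9 UMIs per cell (lowest 0, highest 61) and was detected in 116 cells. Clec3b (tetranectin) had a median of 5 (0 to 53) and was detected in 124, Mfap4, a microfibril-associated glycoprotein, a median of 5 (0 to 38) in 110. Pdgfra, a PDGF receptor, and Dpep1, a dipeptidase, each had a median of 2, with up to 11 and 16 UMIs, in 109 and 96 cells. All 5 genes were detected in 68 cells, 4 in 37, 3 in 17 and 2 in 8. The gate sum had a median of 29 UMIs and reached 115, so most cells lay far above the limit. Only 3 cells had a sum of 5 or 6, with Ogn at 1540 CPM and Gsn at 4330 CPM, and 4 further cells met every other condition at 3 or 4 UMIs, with Ogn at 1076 and Gsn at 4171 CPM. Another 106 kept cells had 5 or more gate UMIs and were left out, 65 of them because a single gate gene was detected and 55 with Upk3b (a cell may fail on several counts).

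Genes outside the gate describe the cells further, though members and lists were chosen with earlier results of these data known. Ogn (osteoglycin, a small proteoglycan named as a marker of these cells) was detected in 93.8% of cells. It had a median of 5 UMIs and a highest of 28. Its level was 2501 CPM against 78.9 in the rest of the library, 1.81 in lymphocytes, 6.05 in endothelial cells and 682 in mesothelial cells. Gated smooth muscle, given below, lay between the mesothelial cells and the fibroblasts. All 14 measured genes of a general fibroblast list were called higher. Col1a1 and Col1a2, the chains of collagen I, stood at 1746 and 2504 CPM against 32.2 and 61.0, and Col3a1, the chain of collagen III, at 3033 against 109. Gsn, the actin-severing protein gelsolin, was present in all 130 cells, with a median of 43.5 UMIs and a highest of 310, at 20867 CPM against 242. Mgp, the matrix Gla protein that restrains calcification, had a median of 12 and a highest of 129, at 6636 CPM against 221. Col3a1 and Col1a2 were less even: both had a median of 4 UMIs, and single cells held 252 and 124.

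The fibroblasts held 363017 UMIs, with a median of 2304 per cell (762 to 15808) against 2562 in the rest. Across libraries, the median of kept cells ran from 2558.5 UMIs on day 0 to 17075 on day 8. The day 0 library shared 41, 37 and 25 barcodes with those of days 8, 13 and 20, and 1 of these barcodes was a fibroblast. Scgb1a1, the secretoglobin of airway club cells, was found in every fibroblast at 5854 CPM. It stood at 6158 in lymphocytes, 8143 in endothelial cells and 1345 in mesothelial cells of the same library. Sftpc, the surfactant gene of type II cells, was found in 39 fibroblasts (146 CPM). It stood at 174 CPM in lymphocytes and 16.0 in mesothelial cells. Both genes are read as background, which was not tested. After each cell was thinned to 1000 UMIs (125 fibroblasts remained), Ogn was detected in 87.2% of fibroblasts and 0.334% of lymphocytes, Col1a2 in 74.4% and 1.13%, and Sftpc in 16% and 15.1%.

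A few cells carried RNA of other types. Over 68 genes of epithelial, endothelial and immune cells, 5 fibroblasts had 50 to 444 UMIs and the other 125 had at most 7. The highest had 221 UMIs of Cd74, the invariant chain of MHC class II, another had 78 of Ager, the AT1 receptor gene, and another 66 of the T cell chemokine Ccl5. Without these 5 cells Ager was at 49.1 CPM in place of 259, Cd74 at 46.1 in place of 653 and Ccl5 at 3.07 in place of 185, whereas Ogn was at 2706 in place of 2501 and Col1a2 at 2657 in place of 2504. Of the genes called higher or lower than in the rest of day 0, 1355 of 1411 and 1496 of 1559 were called again without them. Summed over marker lists, the endothelial genes stood at 124 CPM in the fibroblasts and 19579 in endothelial cells, with 3 of 10 at 0. The myeloid genes stood at 240 CPM against 15297 in the rest of day 0, with 3 of 13 at 0. They stood at 328 CPM in endothelial cells and at 15223 in the lymphocyte gate, which was thus not free of myeloid RNA. The lymphoid genes stood at 311 CPM, 61.4 without the 5 cells, and the AT1 genes at 1248 CPM, 685 without them.

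The sort was for GFP+ cells. EGFP had 6 UMIs in 4 cells, 16.5 CPM (6.07 to 36.0), against 11.3 CPM in mesothelial cells, 54.2 in lymphocytes, 136 in endothelial cells and 1348 in the other cells with at least 5 UMIs of Ager. tdTomato had 63 UMIs in 38 cells, 174 CPM (133 to 222), which lay above the 108 of mesothelial cells and the 137 of the cells with Ager and below the 238 of lymphocytes and the 563 of endothelial cells. Gramd2 had 1 UMI in the 130 cells.

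Compared with the rest of the day 0 library, 1411 of 8153 measured genes were higher in the fibroblasts, 17.3% of all, and 1559 were lower, 19.1%. The genes with the largest ratios included secreted signals and matrix proteins. Gdf10, a BMP-family ligand, stood at 196 CPM against 0.263, with 71 UMIs spread over 23.8% of cells. C7, a terminal complement component, stood at 311 against 0.856, and Dpt (dermatopontin, which binds collagen fibrils) at 711 against 2.83, a ratio of 251 (196 to 324). Spon1 (spondin, a matrix adhesion protein) stood at 683 against 3.62, in 65.4% of cells. Fgf10, the growth factor of lung branching, stood at 68.9 against 0.362 and Meox2, a mesenchymal homeobox factor, at 110 against 0.724.

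The same leading group held transporters and receptors. Slc7a10, an amino acid carrier, stood at 143 CPM against 0.296, Slc36a2 at 171 against 0.428 and Slc38a5 at 121 against 0.395. Scara5, a ferritin receptor, stood at 99.2 against 0.428 and Robo2, a Slit receptor, at 154 against 0.922. Mmp3, a matrix metalloprotease, had the largest ratio, but 85.7% of its 84 UMIs came from 5 cells, and Apod, a lipocalin, had 77.8% of its UMIs in 5 cells. The other genes named so far for their ratios had at most 55.6% of their UMIs in their top 5 cells. At the other end were myeloid genes: S100a9, the neutrophil calprotectin subunit, had 4 UMIs (11.0 CPM) against 2913 CPM, and Lyz2 stood at 105 against 5173. Slpi and Cybb, a protease inhibitor and the phagocyte oxidase subunit, had 0 UMIs, so that they were at least 67.7-fold and 53.2-fold lower (floor of 3 UMIs over the group).

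**Figure D1:**
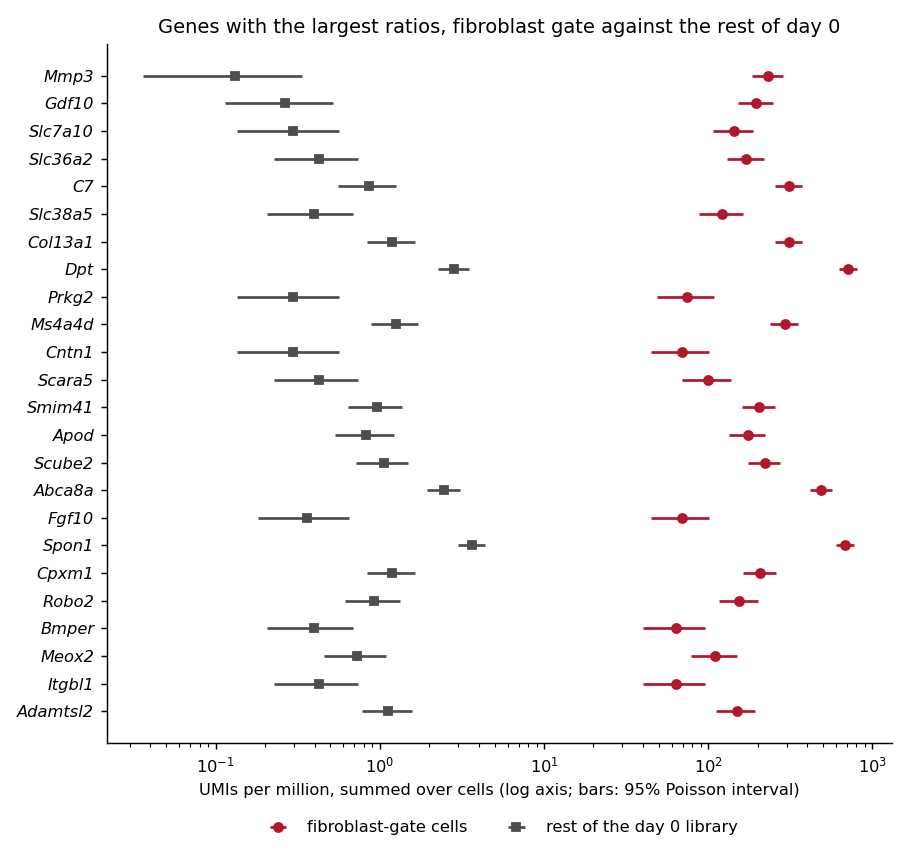
Level of the 24 genes with the largest ratios, in CPM summed over cells (log axis), in the fibroblast-gate cells (red) and in the rest of the day 0 library (grey), with 95% Poisson intervals. Dpt stands at 711 against 2.83, and for each of the 24 genes the intervals lie apart.

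Most measured matrix genes were higher. The median log2 ratio over all measured genes was -0.04, and beside it the fibrillar collagens had 6 of 6 measured genes higher (median 4.88), the elastic fibre genes 12 of 12 (2.89) and the small leucine-rich proteoglycans with versican 10 of 10 (4.40). Eln (elastin) stood at 868 CPM against 116, Fbn1 (fibrillin, the microfibril scaffold) at 548 against 16.1, and Fbln1 (fibulin) at 686 against 8.07. Among basement membrane and microfibril collagens, 15 of 17 were higher and Col4a3 and Col4a4 lower. Of matrix proteases and inhibitors 13 of 14 were higher, with Mmp2 (gelatinase) at 424 against 3.32 and Timp3, a metalloprotease inhibitor, at 3441 against 449. Of collagen processing genes 10 of 13 were higher, with Pcolce2, an enhancer of collagen propeptide cleavage, at 1353 against 16.4.

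**Figure D2:**
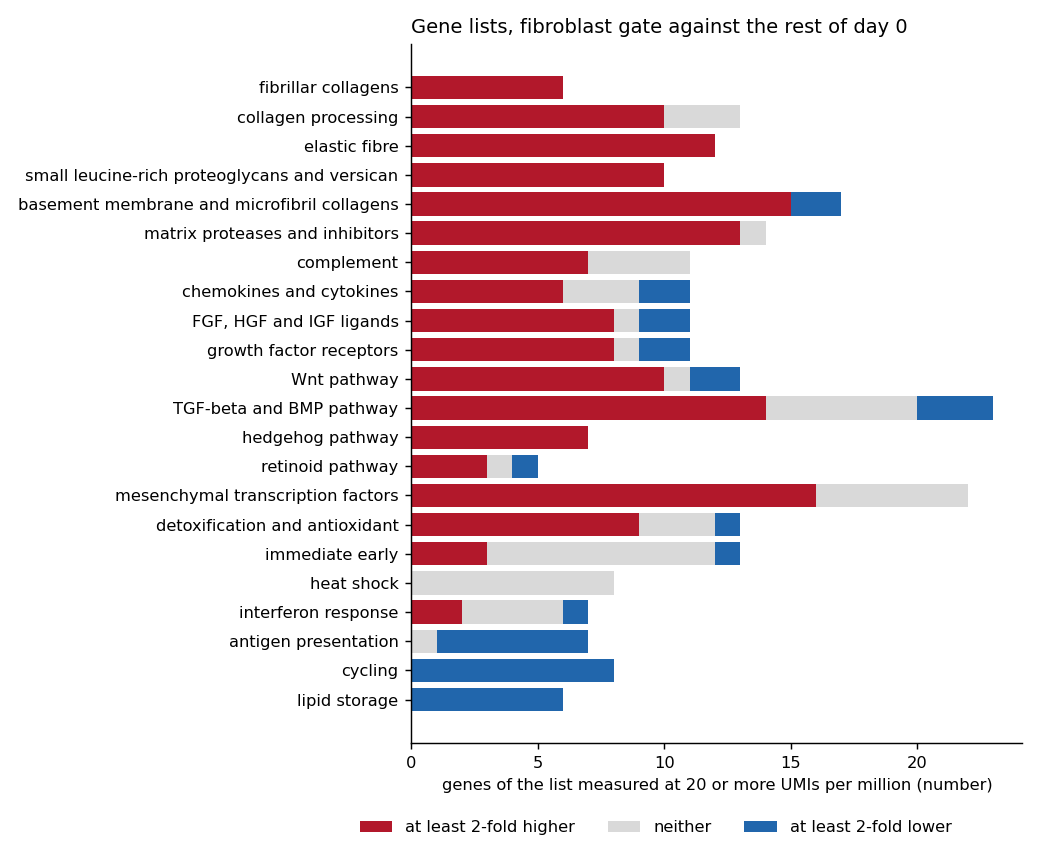
Number of measured genes (20 or more CPM on either side) in each of 22 gene lists that were higher (red), neither (grey) or lower (blue) in the fibroblasts than in the rest of day 0. The elastic fibre list is red in all 12 genes, and the cycling list is blue in all 8.

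Signalling genes were mostly, but not all, on the higher side. Of FGF, HGF and IGF ligands 8 of 11 were higher: Fgf7, which acts on epithelium, stood at 93.7 CPM against 2.07, Hgf at 102 against 8.30, and Vegfd, a lymphatic growth factor, at 383 against 5.17. Fgf1 and Hbegf were lower. Of growth factor receptors 8 of 11 were higher, with Fgfr1 at 207 against 28.8, and Kit and Ednrb had 0 UMIs. Of Wnt pathway genes 10 of 13 were higher, with Wnt2, a lung Wnt ligand, at 110 against 3.95, and of TGF-beta and BMP genes 14 of 23, with Bmp5 at 110 against 7.77 and Ltbp4, which anchors latent TGF-beta, at 1749 against 91.7. All 7 measured hedgehog genes were higher, with the target Gli1 at 33.1 against 1.58. Summed levels of these lists were not all highest in the fibroblasts beside gated smooth muscle, pericyte-gate and mesothelial cells. Hedgehog genes stood at 719 CPM beside 650, 496 and 1697, and Wnt genes at 672 beside 286, 787 and 1589. Growth factor receptors stood at 2251 beside 1116, 2528 and 269. The FGF, HGF and IGF list stood at 1454 beside 437, 1508 and 299, and TGF-beta and BMP genes at 5655 beside 3774, 4457 and 5417.

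Among the Wnt antagonists Sfrp1 stood at 102 against 22.5, whereas Rspo1, a Wnt agonist, had 1 UMI. Tgfb1 was lower, at 27.5 CPM against 156. Of the retinoid genes, Rbp4, the plasma retinol carrier, stood at 493 against 11.4 and Aldh1a1, which makes retinoic acid, at 647 against 180, and Aldh1a2 was lower. Adhesion genes were split, with 6 of 14 higher and 5 lower: Itga8, the integrin chain that binds nephronectin, stood at 645 against 26.8, Cdh11, a mesenchymal cadherin, at 438 against 8.16 and Vcam1 at 328 against 14.9, and Thy1 and Itga1 were lower.

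Complement genes were higher in 7 of 11, with C3 at 1623 CPM against 228, and chemokines in 6 of 11, with Cxcl14 at 1556 against 21.1. Among mesenchymal transcription factors 16 of 22 were higher and 0 lower, with Tcf21 at 510 against 5.43, Nr2f2 at 545 against 61.9 and Tbx4 at 127 against 8.74. Summed, this list stood at 4603 CPM, beside 3444 in smooth muscle, 8362 in the pericyte gate and 1858 in mesothelial cells. Detoxification genes were higher in 9 of 13, with Fmo2, a flavin monooxygenase, at 1931 against 96.1 and Gpx3, the secreted glutathione peroxidase, at 1537 against 40.2. Heat shock genes were called in neither direction in 8 of 8, and 9 of 13 immediate early genes likewise, with Fos at 851 against 763. Mki67, which marks dividing cells, had 0 UMIs, below the 8.26 CPM that 3 UMIs give.

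Lipid storage genes were lower in 6 of 6, with 27 UMIs of Lpl (lipoprotein lipase) and 0 of Pparg in the 130 cells. Their summed level was 300 CPM, beside 332 in smooth muscle, 365 in the pericyte gate, 507 in mesothelial cells and 2748 in endothelial cells. Markers of endothelial (9 of 9), myeloid (12 of 12), AT2 (10 of 10) and general epithelial cells (6 of 6) were lower, and of AT1 markers 9 of 11. Of mesothelial markers 6 of 7 were lower and Upk1b higher. The pericyte list went both ways: Pdgfrb, Kcnj8 and Postn were higher and Cox4i2 and Notch3 lower of 7 measured (median log2 ratio 0.34, and -0.55 with the mean of per-cell CPM), and its summed level was 380 CPM against 234 in the rest and 15927 in the pericyte gate. Acta2, smooth muscle actin, stood at 152 CPM against 659 in the rest and 15108 in gated smooth muscle. The 3 haemoglobin genes called higher rest on few cells, with the UMIs of Hbb-bs in 2 cells and those of Hba-a1 in 1.

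The fibroblasts differed among themselves along the alveolar and adventitial lists. An alveolar list of 13 genes and an adventitial list of 15 were summed in each cell, and a cell leaned to a list with at least 3 of its UMIs and at least 2 times those of the other. By this rule 72 cells leaned to the alveolar list (55.4%, 46.4% to 64.1%), 46 to the adventitial list (35.4%, 27.2% to 44.2%) and 12 to neither. Alveolar-leaning cells had a median of 35 alveolar and 2 adventitial UMIs, adventitial-leaning cells 2 and 49. Over the 130 cells the shares of UMIs in both lists had r = -0.63 and rho = -0.81, a description over cells of 1 library, and 20 cells had list counts within 3-fold of each other. The leanings are ranges of a per-cell count and not types. The alveolar-leaning cells were shallower, with a median of 2000 UMIs against 2815.5.

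**Figure D3:**
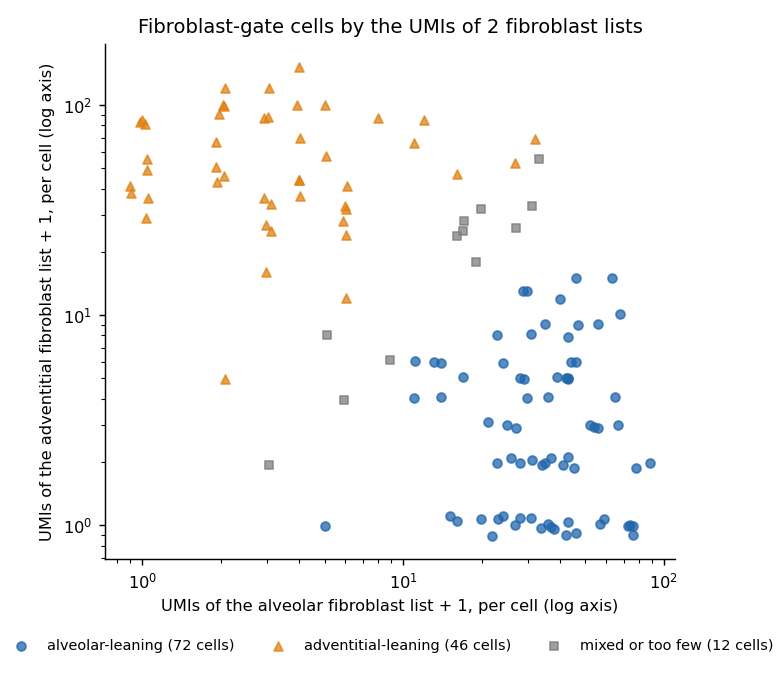
UMIs of the alveolar list (x) and of the adventitial list (y) in each of the 130 fibroblasts, with 1 added (both log axes) and points jittered slightly. The 72 alveolar-leaning cells (circles) lie at the lower right, the 46 adventitial-leaning cells (triangles) at the upper left, and the 12 cells of neither (squares) between or near the origin.

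The list genes themselves set this split and are given as levels. Npnt (nephronectin, an integrin ligand) stood at 2914 CPM in alveolar-leaning and 125 in adventitial-leaning cells, Tcf21 at 814 and 125, and Col13a1 at 606 and 20.8. Dcn (decorin) stood at 115 and 8551, detected in 10 and 43 cells, and Pi16 at 28.9 and 1554. Of the gate genes, Inmt stood at 6475 and 1845, Mfap4 at 3867 and 1366, Pdgfra at 1518 and 590, Dpep1 at 1062 and 1013, and Clec3b at 1518 and 5007.

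Outside both lists and the gate, 456 of 7887 measured genes were higher in alveolar-leaning cells (5.78%) and 446 were lower (5.65%). Higher were Cdo1, cysteine dioxygenase, at 1062 CPM against 34.7 (ratio 30.6, 12.9 to 95.4), Hsd11b1, which regenerates active glucocorticoid, at 1581 against 76.3, and Cxcl14 at 2435 against 326. Tagln, an actin-binding protein of contractile cells, stood at 871 against 20.8, in 43 of 72 and 3 of 46 cells, and Scube2, a secreted hedgehog cofactor, had 80 UMIs in 41 cells and 0 in adventitial-leaning cells, at least 22.2-fold higher. Also higher were Gpx3 (2620 against 555), Fmo2 (3001 against 881), Aldh1a1, a retinoic acid enzyme (1097 against 153), Plin2, a lipid droplet coat (260 against 34.7), and the ligands Vegfd (658 against 125) and Angpt1 (496 against 111). tdTomato stood at 294 against 62.4, a ratio of 4.72 (2.30 to 10.9). Among the measured genes of an airway-side and myofibroblast list, Tagln alone was called higher in alveolar-leaning cells. Hhip (0 against 180 CPM), Tgfbi (0 against 222) and Aspn (110 against 319) were called lower. So were Wnt5a (23.1 against 111), Mustn1 (46.2 against 125) and Myl9 (34.6 against 97.1). Acta2 (86.6 and 118) was called in neither direction.

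In each of the next matrix lists, more genes were called higher in adventitial-leaning than in alveolar-leaning cells. Of 6 measured fibrillar collagens 4 were higher in adventitial-leaning cells and 0 lower, of 11 elastic fibre genes 4 and 0, of 9 small leucine-rich proteoglycans with versican 4 and 1, and of 13 collagen processing genes 2 and 1. Higher in alveolar-leaning cells were Fn1 (fibronectin, 1783 CPM against 395), Spon1 (1125 against 250) and Prelp (1299 against 319), and Bgn, a small proteoglycan (2736 and 2018), and Col6a1, a chain of collagen VI (762 and 805), were called in neither direction. Col1a1 stood at 2830 CPM against 912 (ratio 3.10, 2.58 to 3.75), Col1a2 at 4362 against 1218 and Col3a1 at 5354 against 1310, and Fbln1 at 1248 against 242. Lum (lumican), Fbln2 and the transcription factor Ebf1 had 0 UMIs in the 72 alveolar-leaning cells and were at least 23.6-fold, 22.4-fold and 26.0-fold higher. Cd9, a tetraspanin, stood at 985 against 23.1, in 37 of 46 and 4 of 72 cells. The chemokine Cxcl12 stood at 506 against 34.6. Mmp3 had 83 of its 84 UMIs here, in 12 cells.

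Several other groups were called mostly one way, and transcription factors went both ways. Matrix proteases and inhibitors were higher in adventitial-leaning cells in 11 of 14 measured genes (median log2 ratio of alveolar over adventitial -1.72, beside 0.06 for all genes), complement in 7 of 12, with C3 at 2788 against 843 CPM, and hedgehog genes in 7 of 9, with Ptch1, a hedgehog receptor and target, at 222 against 86.6. Wnt genes were called in 4 of 11, all higher in adventitial-leaning cells, with Wnt5a at 111 against 23.1 and Sfrp1 at 160 against 28.9. Wnt2, a gene of the alveolar list, and Sfrp2, a gene of the adventitial list, were left out and could not be counted. Rbp4 stood at 805 against 92.3 and Igf1 at 250 against 69.3, whereas Cdh11 (635 against 229), Vcam1 (479 against 187) and Lox, the collagen crosslinker (462 against 153), were higher in alveolar-leaning cells. Detoxification genes were higher in alveolar-leaning cells in 5 of 13 and lower in 1. Of 24 measured transcription factors, 5 were higher in alveolar-leaning cells, among them Tbx4 (196 against 41.6), and 4 lower, among them Foxf1 (11.5 against 111). Ogn (3376 and 1859), Mgp (6452 and 5708), Gsn and C7 stayed under a 2-fold difference. The 6 AT1 and 2 lymphoid genes called higher in adventitial-leaning cells were not called so without the 5 cells carrying other-cell UMIs, 3 of which lean this way. Ager then stood at 39.6 CPM against 53.1 in alveolar-leaning cells, in place of 576 against 51.9. Hopx, a homeobox gene of AT1 cells, turned direction, from 465 against 150 to 55.4 against 153. Ccl5 had 1 UMI left in the adventitial-leaning cells in place of 67.

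**Figure D4:**
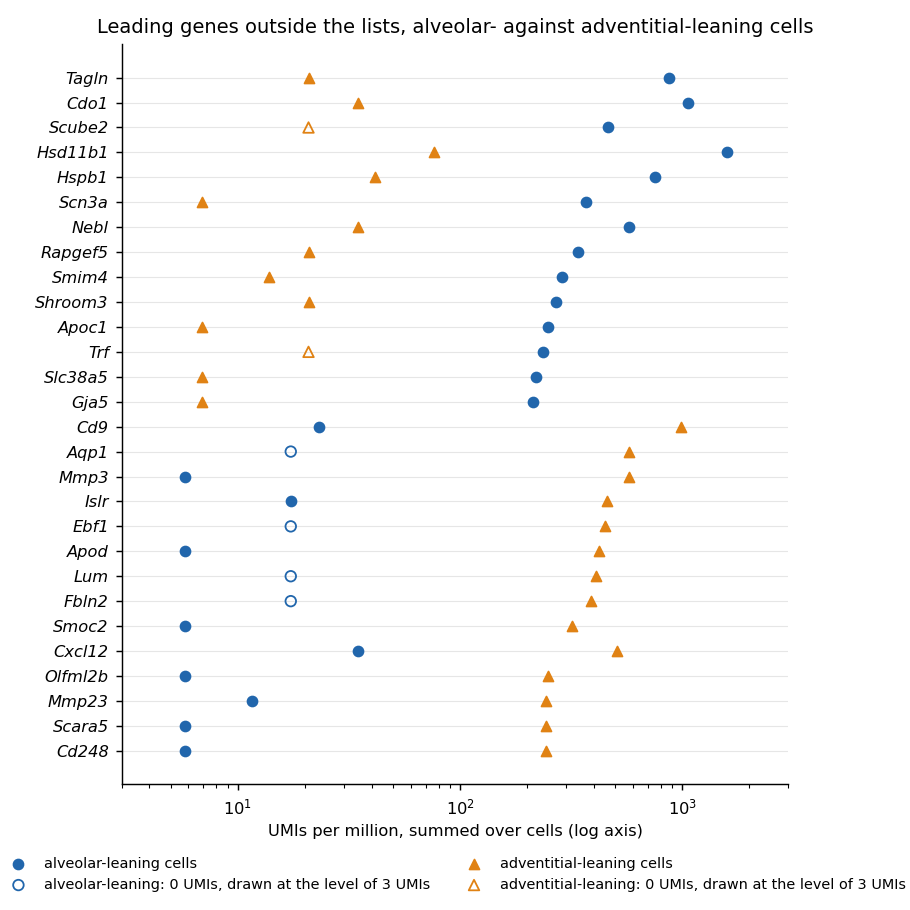
Levels of the 14 leading genes in each direction outside the lists, in CPM summed over alveolar-leaning (blue circles) and adventitial-leaning cells (orange triangles), on a log axis, with open symbols for 0 UMIs drawn at the level of 3 UMIs. Cdo1 stands at 1062 against 34.7 and Cd9 at 23.1 against 985.

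Beside the other mesenchymal cells of day 0, the fibroblasts were set against 345 gated smooth muscle cells, 84 mesothelial cells and 62 pericyte-gate cells, leaving out the genes of either gate. Against smooth muscle 1018 of 7380 genes were higher (13.8%) and 706 lower (9.57%). Col1a1 was 4.65-fold higher (4.10 to 5.29), Gsn 17.6-fold, and C7, with 0 UMIs in smooth muscle, at least 108-fold. Elastin was not called, at 868 CPM against 1482, and Hhip, a hedgehog inhibitor, was lower, at 74.4 against 370. Complement genes were higher in 10 of 11, with C3 at 1623 against 4.79.

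Against mesothelial cells 1490 of 7424 genes were higher (20.1%) and 994 lower (13.4%). The mesothelial cells had a median of 3363 UMIs and a highest of 70957, so the deepest cells weigh most in their sums. Fibrillar collagens were higher in 6 of 6 and transcription factors in 19 of 22, whereas C3 (1623 against 4074) and C4b (598 against 2439) were lower. The adventitial list was not particular to the fibroblasts: its sum was 8683 CPM against 12942 in mesothelial cells. Its genes went both ways. Pi16 was higher (661 against 1.88), Igfbp6 lower (1611 against 8584), and Dcn (3611 and 2933) and Col14a1 (446 and 361) were called in neither direction. Scgb1a1, read as background, differed too, at 1345 CPM in the mesothelial cells beside 5854 in the fibroblasts. In the fibroblasts 5 of 5 measured airway secretory genes were called higher. The part of free RNA in the counts was not tested. Against the pericyte gate 444 of 7776 genes were higher (5.71%) and 1041 lower (13.4%). That gate held 106797 UMIs in all and carried Clec3b at 1283 CPM, Dcn at 487 and Ager at 918, so it was not free of other RNA. Ogn stood at 56.2 CPM there, Pdgfrb (a PDGF receptor of mural cells) at 1826 against 116 in the fibroblasts.

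Over the fibroblasts and the 5 gated day 0 classes (smooth muscle, pericyte, mesothelial, endothelial and lymphocyte), the genes with levels most like Ogn included Myh10 (r = 0.986), Medag (0.984), Rcn3 (0.984), Mmp23 (0.983), Neo1 (0.978), Col4a5 (0.978), Plin3 (0.975), Fgf2 (0.975) and Vgll3 (0.975). These are Pearson correlations of log2(CPM + 1) over 6 points of 1 library. Ogn itself stood at 2501 CPM in the fibroblasts, 1002 in smooth muscle, 682 in mesothelial cells and 56.2 in the pericyte gate.

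In culture the same gate found 130 of 7893 cells on day 8, 466 of 9311 on day 13 and 1250 of 9178 on day 20, but with another makeup. These cells were deeper, with medians of 16979, 16721.5 and 18117 UMIs against 2304 on day 0. The limit of 5 UMIs was therefore met at lower levels, and the counts are not like for like. Inmt stood at 52.3 CPM in the gated cells of day 20 against 4234 on day 0, and Clec3b at 331 against 3014. Of the gate UMIs on day 0, Inmt gave 35.7% and Dpep1 8.77%; on day 20 they gave 7.18% and 0.373%, and Pdgfra and Clec3b gave 31.0% and 45.5%. Fibroblast-like cells of the cultures were therefore taken by their collagens: Col1a1, Col1a2 and Col3a1 at 0.5% or more of UMIs and at most 1 UMI of Ptprc, Cd68, Epcam, Cldn5 and Upk3b. This gave 133, 328 and 1056 feeder-like cells on days 8, 13 and 20. Library, day and origin (mouse lung or, as far as the labels say, the MLg line) cannot be told apart, so values are set side by side.

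Summed over all 130 fibroblasts, Dcn stood at 3611 CPM beside 3063, 3229 and 3652 in the feeder-like cells of days 8, 13 and 20. This sum joins 8551 CPM in the 46 adventitial-leaning cells, above the feeder-like cells, and 115 CPM in the 72 alveolar-leaning cells, below them. The collagens, which chose the feeder-like cells, were at 1746 beside 1366, 1442 and 1725 for Col1a1. Npnt stood at 1471 beside 4.71, 1.16 and 1.75, Eln at 868 beside 3.66, 6.01 and 8.90, and Gpx3 at 1537 beside 1.05, 0.694 and 1.30. Cxcl14 had 0 UMIs in the feeder-like cells of all 3 days. In the other direction Lum stood at 174 beside 662, 999 and 1462.

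Against the day 20 feeder-like cells, with the genes of both gates left out, 1976 of 7360 genes were higher in the day 0 fibroblasts (26.8%) and 1068 lower (14.5%). All 13 alveolar list genes were higher, 10 of 14 adventitial genes, 11 of 12 elastic fibre genes and 10 of 11 complement genes. Of the ligands, Fgf7 was 5.13-fold higher (3.48 to 7.34), Fgf10 3.56-fold (2.27 to 5.36) and Hgf 4.76-fold (3.29 to 6.69), and Igf1 was lower, at 157 CPM against 518. Of the immediate early genes 10 of 13 were higher, with Fos at 851 against 98.7, and 5 of 5 cycling genes were lower. Scgb1a1, read as background, also differed, at 5854 against 234, and 9 of 9 AT1 and 4 of 4 lymphoid genes were higher; the part of free RNA and of the 5 cells with other-cell UMIs in these counts was not tested.

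**Figure D5:**
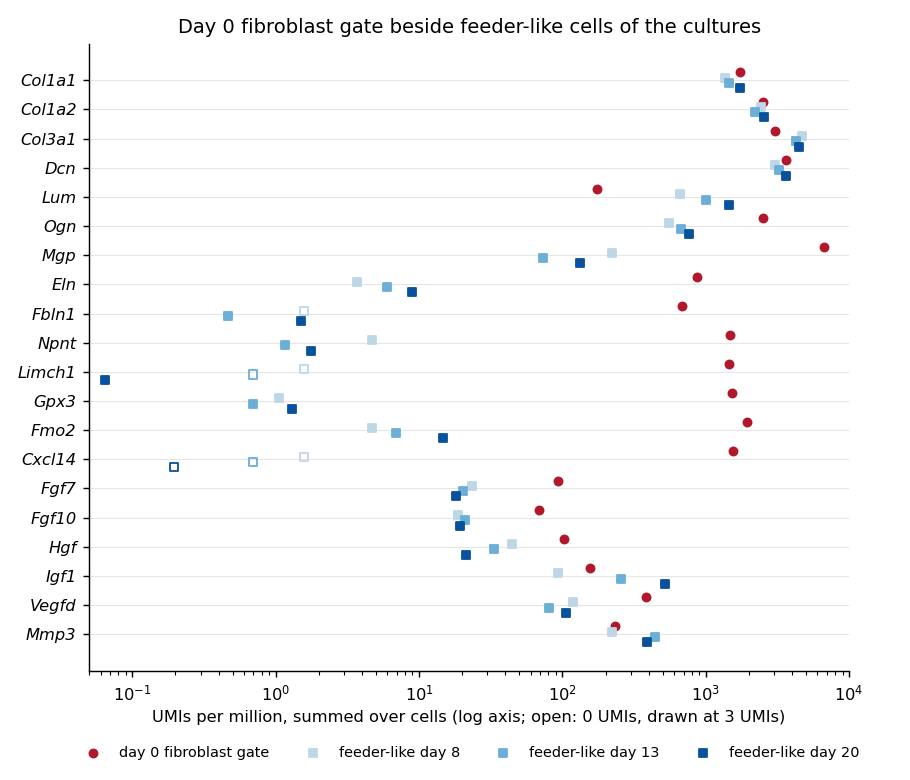
Levels of 20 matrix, alveolar and signalling genes in CPM (log axis) in the day 0 fibroblasts (red circles) and in the feeder-like cells of days 8, 13 and 20 (light to dark blue squares), with open squares for 0 UMIs drawn at the level of 3 UMIs. Dcn of the summed fibroblasts lies at 3611, which joins 8551 in adventitial-leaning and 115 in alveolar-leaning cells, beside 3063 to 3652 in the feeder-like cells, and Npnt at 1471 stands far from 4.71, 1.16 and 1.75.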

How the data were processed

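The 10x Genomics 3′ libraries (chemistry v3.1) were sequenced from 1 sample per day, and nuclear RNA is the molecule named in the labels. Per the file headers and the submitters' processing notes, the authors made the deposited UMI counts per gene and barcode with Cell Ranger 7.0.1 on mm10; the sources used here do not state other settings. Counts were read as deposited for 22547 features. Barcodes with at least 500 genes and at most 15% mitochondrial UMIs were kept. UMIs were summed per group, a side under 3 UMIs was set to 3 in ratios, and exact Poisson, conditional Poisson and Clopper-Pearson intervals were computed (Python 3.11.15, numpy 2.4.6, scipy 1.17.1). The 9 gate genes were left out of counts. The functions were tested on simulated data. Doublets were kept, with Scrublet scores (scanpy 1.11.5) used as an alternative.

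Smooth muscle cells had at least 3 UMIs of Myh11, pericyte-gate cells at least 2 UMIs over at least 2 of 4 genes (Cspg4, Kcnj8, Cox4i2, Higd1b), and mesothelial cells Upk3b with at least 3 UMIs over it, Msln, Lrrn4 and Wt1. Each had Ptprc and Cldn5 at 0. Lymphocytes and endothelial cells, gated on their own markers, were used for the level of free RNA. The lymphocyte gate also carried myeloid RNA, with the myeloid list at 15223 CPM beside 328 in endothelial cells. Levels in that gate are therefore not a clean reading of free RNA.

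The members and the 45 gene lists were chosen with earlier results of these data known. Named genes were the 24 largest ratios higher and the 8 largest lower with at least 50 CPM (for higher genes, also a UMI in at least 10% of the cells), for each list up to 8 genes, and a preset group of fibroblast, reporter and epithelial genes. The rule for the 14 leading genes of each leaning (50 CPM, a UMI in 20% of cells), the other-cell gene list and the Ager group were chosen after seeing the data. Genes outside this rule that the text names to show a value of a list were chosen after their values were seen. Alternatives were other gate limits and genes, cell filters, the CPM minimum, the mean of per-cell CPM, and other limits for leaning and for feeder-like cells; leaving out the 5 members with at least 10 other-cell UMIs was added after seeing the data. A gene that this rule names is not reported here.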

Additional observations from a re-analysis of the deposited data

How the results depend on the processing

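The number of fibroblasts ranged from 97 to 134 under 11 other gates and filters and fell to 86 of 130 at a limit of 5% mitochondrial UMIs. The count of genes higher than in the rest of day 0 (1411) ranged from 1263 to 1770 under 14 alternatives and the count lower (1559) from 1345 to 1673; with a minimum of 50 CPM, which leaves fewer genes to call, they were 864 and 830. Leaving out the 523 cells with the highest doublet scores removed 8 fibroblasts. The leanings held 66 to 75 alveolar and 42 to 52 adventitial cells, and the genes between them 450 to 499 (main 456) and 384 to 432 (main 446). Against feeder-like cells of day 20 the higher genes fell from 1976 to 1125 with a collagen share of 2% (79 cells), and the cause was not tested. Over 15 alternatives, list medians moved by less than 1 (log2) in 623 of the list values and by more in 21; the median of the pericyte list reversed, from 0.34 to -0.55, with the mean of per-cell CPM, and the cause was not tested. Of the values for named genes, 735 stayed within their main interval and 75 did not. No paired analysis was possible because each day has 1 library. Leaving out a replicate was not possible for the same reason. The depth, a median of 2304 UMIs per fibroblast, limits genes under about 8.26 CPM, the level of 3 UMIs.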
